A study of Danio rerio with 6 samples.

Results

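The 52 genes described here make up the core of DNA replication and of S phase, the stage of the cell cycle in which the genome is copied. They were picked by gene symbol, and each symbol matched 1 gene of the 24923 in the deposited table. All 52 were among the 17309 genes with enough counts to be tested. They were read in 11 groups by what their products do, from S phase entry and the licensing of origins to the polymerases, nucleotide supply and chromatin assembly.

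Tail fin tissue of zebrafish larvae was sequenced as bulk RNA. The labels name the AB strain and the Tg(MPEG-GFP) line among the fish kept, and do not say which of them the sequenced larvae came from. Larvae of the sunitinib group were kept from 2 days post-fertilization (dpf) in E3 medium with 8 μM sunitinib, an inhibitor of several receptor tyrosine kinases, and larvae of the DMSO group in medium with the vehicle alone, 0.1% DMSO, which the methods also give as the final DMSO content of the drug solutions. In both groups the tail fin was amputated at 3 dpf and tissue was taken 6 hours post-amputation (hpa) with treatment continued, so the comparison holds no uncut fin and no later time. Each group had 3 biological replicates, each a pool of tissue from more than 60 larvae, so the spread between replicates is a spread between pools.

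Before S phase, the origin recognition complex, cdc6 and cdt1 load the ring of mcm2 to mcm7, the replicative helicase, onto DNA. Cyclin-dependent kinase activity then adds cdc45 and the GINS complex, the ring starts to unwind DNA, and the polymerases copy both strands behind it, held on DNA by the pcna clamp. Nucleotides are supplied by ribonucleotide reductase and by the thymidylate pathway, and histones and DNA methylation are restored on the new strands. Transcripts of many of these genes peak in cycling cells, and several, pcna and the MCM genes among them, are widely used as markers of proliferation.

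The libraries held 13394060 to 15294706 estimated reads, of which the 52 genes took 18369 to 22472, or 0.1229% to 0.1517%. The range in the DMSO group was 0.1288% to 0.145% and that in the sunitinib group was 0.1229% to 0.1517%, so the groups overlapped. DMSO replicate 1 stood apart, since its counts differed from those of the other libraries by a chi-square of 35.1 to 60.8 for each degree of freedom, and pairs without it gave 8.59 to 24.6. Markers of the tail fin were present in every library, among them the actinodin gene and1 at 1098 to 1395 CPM (counts scaled to a common library size, in the usual per-million unit). Marker genes of muscle took 20.9% to 28.3% of counts in DMSO and 24.8% to 27.2% in sunitinib. Those of the fin fold took 1.102% to 1.306% against 0.955% to 1.012%, and those of the notochord 0.388% to 0.438% against 0.309% to 0.344%, both without overlap. Epidermal markers took 2.84% to 3.31% against 3.13% to 3.81%. A list of markers of macrophages and other leukocytes took 0.0407% to 0.0585% against 0.0339% to 0.0408%, and none of the 11 in the table was at 0. The macrophage gene mpeg1.1 was at 8.03, 4.92 and 4.50 CPM in DMSO and 4.39, 6.73 and 4.78 CPM in sunitinib, with overlap. The part of these shares in the values below was not tested, and in bulk tissue fewer cells of a type and less RNA per cell cannot be told apart.

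Replication genes were expressed at moderate levels in the amputated fin. On the deposited scale per length (FPKM, fragments per kilobase of gene, scaled by depth), 43 of the 52 lay above the median of the genes tested in DMSO, which was 3.67 FPKM, and their own median was 8.98 FPKM. The highest was pcna, the sliding clamp, at 198 ± 43.1 FPKM (SD, n = 3), and below it came rrm2, the small subunit of ribonucleotide reductase, at 49.4 ± 7.66 FPKM. The lowest were e2f1, a transcription factor of S phase genes, at 1.21 ± 0.268 FPKM and ccne1, a cyclin of S phase entry, at 1.59 ± 0.402 FPKM, whose replicates overlapped. The 6 subunits of the MCM ring, which is built from 1 copy of each, lay within a factor of 1.34 of each other, from 19.2 FPKM for mcm3 to 25.7 FPKM for mcm2. Levels were less even within the clamp and its loader, at 4.99 to 198 FPKM, and within the S phase entry group, at 1.21 to 13.6 FPKM. The level of rpa3 on this scale, 45.3 ± 19.4 FPKM, rests on an effective length of only 241 bp. Effective length is the gene length that ties the deposited count to the deposited FPKM.

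**Figure D1:**
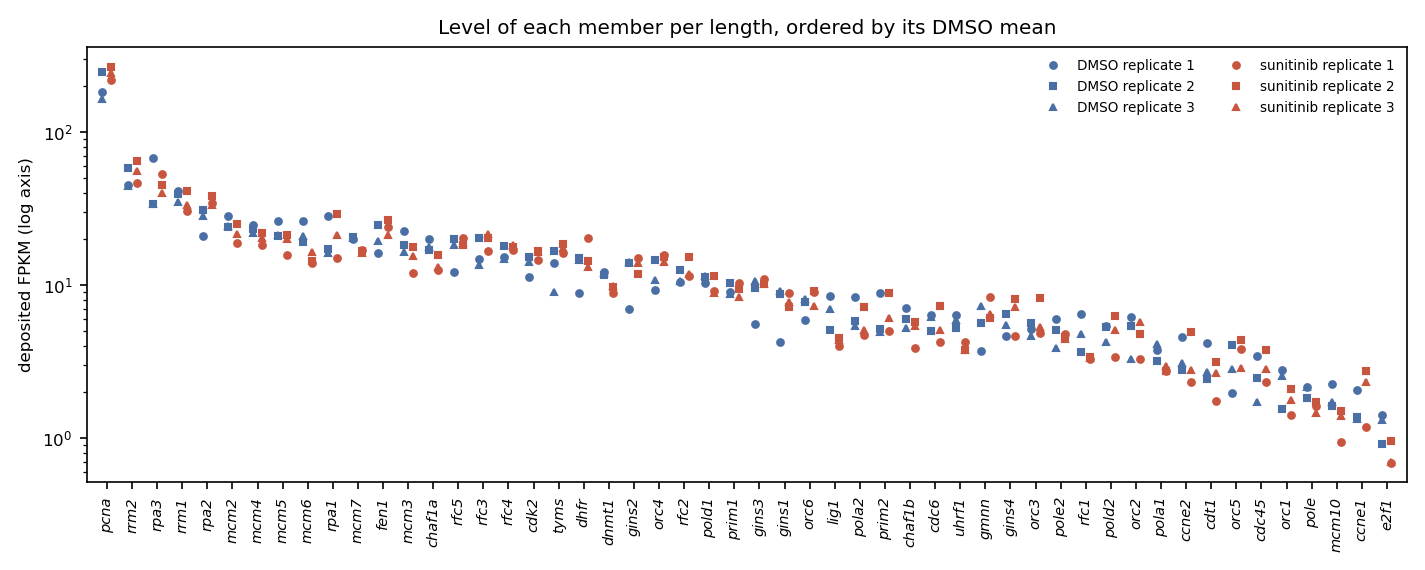
Deposited FPKM (log axis) of each of the 52 genes in each library, blue for DMSO and red for sunitinib, with a symbol per replicate and the genes ordered by their DMSO mean. pcna, at a DMSO mean of 198 FPKM, stands above all others, and the points of most genes from both groups lie together.

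With sunitinib, none of the 52 genes passed the test across all genes. The edgeR quasi-likelihood test with Benjamini-Hochberg adjustment called 0% of the 17309 genes at an adjusted p under 0.05, and its smallest adjusted p was 0.19. The smallest among the 52 was 0.285 in the same edgeR fit, for lig1. DESeq2 called 43 genes and none of the 52, and limma on the deposited FPKM called 0 genes. The 43 were 0.176% of the 24417 genes with a DESeq2 p-value, some of which its own filter left without an adjusted p. At an unadjusted p under 0.05, 3 of the 52 were higher with sunitinib (orc4, rpa2 and tyms), or 5.77%, where 7.51% of all genes were. By the same measure 7 were lower (e2f1, mcm6, mcm10, rfc1, lig1, chaf1a and uhrf1), or 13.5%, against 6.12% of all genes. Single libraries moved these counts. Without DMSO replicate 1, 7 of the 52 were higher (13.5%, against 6.91% of all genes in that fit), and without DMSO replicate 2, 11 were (21.2%, against 9.71%). Without DMSO replicate 3 or sunitinib replicate 3, 1 was higher (1.92%, against 5.92% and 4.88% of all genes). Lower genes numbered 4 without sunitinib replicate 3 (7.69%, against 3.51% of all genes in that fit).

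The genes did not share a direction. On the log2 scale the fold change was positive for 28 of the 52 and negative for 24, 53.8% positive against 49.5% of all genes tested, with a median of 0.042 against -0.004. The values ran from -0.60 to 0.47. Libraries of the groups did not overlap for 3 genes that were higher with sunitinib (cdk2, rpa2 and tyms), 5.77% against 9.15% of all genes. For 12 genes the sunitinib libraries were all below the DMSO libraries, 23.1% against 10.8% of all genes. These were e2f1, mcm2, mcm4, mcm6, mcm10, pola1, pole, rfc1, lig1, chaf1a, uhrf1 and dnmt1. The median deviation of the whole list from each gene's mean was 0.096, 0.116 and -0.077 in the DMSO libraries and -0.062, -0.004 and -0.038 in the sunitinib libraries, so the groups overlapped.

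**Figure D2:**
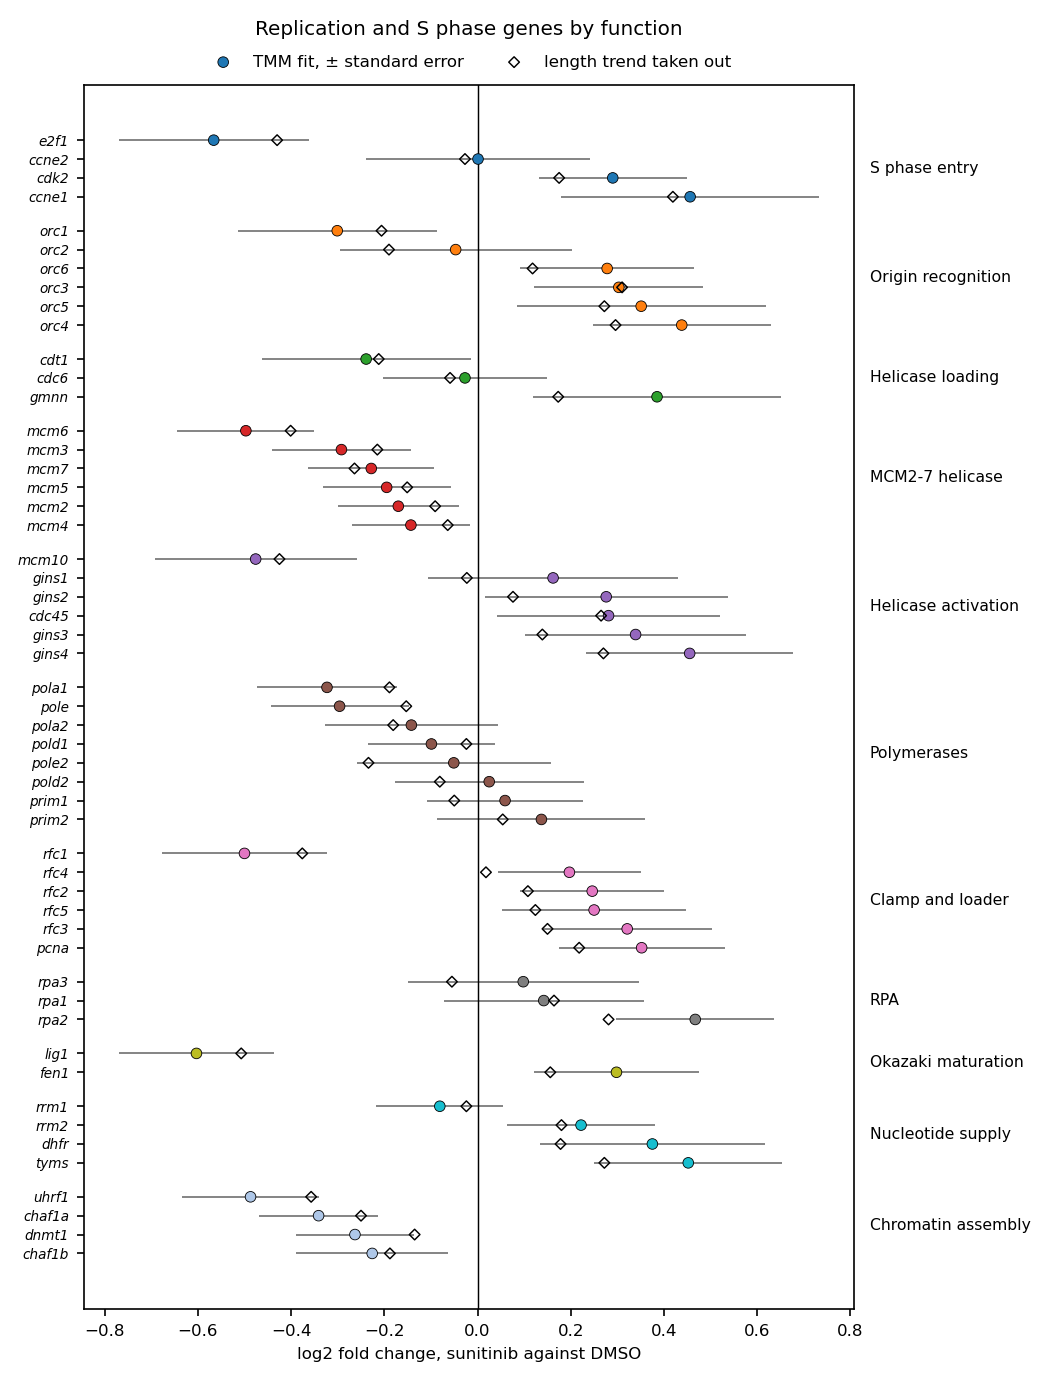
Log2 fold change of sunitinib against DMSO for each of the 52 genes by function, as filled points with their standard errors from edgeR, and as open diamonds after removal of the length trend. All 6 MCM genes and all 4 chromatin assembly genes lie left of 0 in both fits, and no gene passed the adjusted test.

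Genes of S phase entry went in both directions. The transcription factor gene e2f1 (gene ID 101885420), which switches on many replication genes, was measured at 6.85, 4.78 and 6.59 CPM in DMSO and at 3.94, 4.63 and 3.70 CPM in sunitinib, after TMM scaling of the libraries as for every CPM value below. Every sunitinib library was below every DMSO library, by a margin of 4.78 against 4.63 CPM. Its log2 fold change was -0.57 (SE 0.20, edgeR adjusted p = 0.309). The unadjusted p was under 0.05 in 11 of the 15 alternative fits that included it. Those without DMSO replicate 3 (-0.50) or sunitinib replicate 3 (-0.49) were among the fits where it was not. Across the 15 fits the fold change of e2f1 ran from -0.705 to -0.32. Its groups overlapped once the length trend was taken out. The kinase gene cdk2, whose product with cyclin E starts S phase, stood at 14.1, 20.9 and 18.4 CPM in DMSO and at 21.6, 21.1 and 22.6 CPM in sunitinib. The groups were separate here too, in the opposite direction, with a log2 fold change of 0.29 (SE 0.16, edgeR adjusted p = 0.427). It was 0.15 without DMSO replicate 1 and 0.18 with the length trend taken out, where the groups overlapped. Of the cyclin E genes, ccne1 had a log2 fold change of 0.46 (SE 0.28) and ccne2 one of 0.001 (SE 0.24), both with overlapping groups. The median of the 4 genes, 0.15, was -0.013 without sunitinib replicate 2 and 0.23 without sunitinib replicate 1.

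Of the 6 origin recognition genes, whose products mark the sites where replication can start, 4 had a positive and 2 a negative fold change, with a median of 0.29 on the log2 scale, or 0.12 without DMSO replicate 1. The subunit gene orc4 (gene ID 406462) had 10.2, 17.4 and 12.2 CPM in DMSO and 20.3, 16.8 and 17.0 CPM in sunitinib. DMSO replicate 2 lay inside the sunitinib range, so the groups overlapped, and the log2 fold change was 0.44 (SE 0.19, edgeR adjusted p = 0.348). It was 0.28 without DMSO replicate 1 and 0.69 without DMSO replicate 2, and the unadjusted p was under 0.05 in 7 of 17 alternative fits. The largest subunit, orc1, had the lowest fold change of the complex, at -0.30 (SE 0.21), and orc2 was at -0.047 (SE 0.25). None of the 6 had groups that did not overlap.

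The 3 genes that load the helicase or restrain its loading all had overlapping groups. The ATPase gene cdc6, which recruits the helicase to the origin, had 11.2, 9.56 and 11.4 CPM in DMSO and 8.78, 12.9 and 9.76 CPM in sunitinib, with a log2 fold change of -0.027 (SE 0.18). Its partner cdt1 had -0.24 (SE 0.22). The geminin gene gmnn, whose product holds cdt1 in check after an origin has fired, was at 2.65, 4.36 and 5.38 CPM in DMSO and at 6.995, 4.32 and 4.98 CPM in sunitinib. DMSO replicate 1 was the lowest of these 6 values and sunitinib replicate 1 the highest, and the log2 fold change was 0.39 (SE 0.27, edgeR adjusted p = 0.515). It was 0.15 without DMSO replicate 1, 0.17 without sunitinib replicate 1 and 0.62 without DMSO replicate 3.

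All 6 genes of the MCM helicase had lower means with sunitinib, with a median log2 fold change of -0.21 and a range from -0.50 to -0.14. The largest difference was in mcm6 (gene ID 566409), at 71.8, 56.9 and 59.6 CPM in DMSO and at 45.0, 39.1 and 49.3 CPM in sunitinib. Its groups were apart, and the log2 fold change was -0.50 (SE 0.15, unadjusted p = 0.00492, edgeR adjusted p = 0.293). It kept an unadjusted p under 0.05 in 17 of 17 alternative fits, with fold changes of -0.57 to -0.33. The gene of highest level per length, mcm2, had 72.8, 67.4 and 65.2 CPM in DMSO and 57.3, 64.7 and 60.5 CPM in sunitinib. The groups were separate by a margin of 65.2 against 64.7 CPM, and the log2 fold change was -0.17 (SE 0.13, edgeR adjusted p = 0.559). The groups of mcm4 were apart as well, while those of mcm3, mcm5 and mcm7 overlapped. With the length trend taken out, the groups of mcm2 and mcm4 overlapped too, and those of mcm6 stayed apart. On deposited FPKM the groups of mcm6 and mcm7 were apart, and those of mcm2 and mcm4 overlapped. The median deviation of the 6 genes was 0.216, 0.119 and 0.003 in the DMSO libraries and -0.197, -0.058 and -0.086 in the sunitinib libraries, without overlap. Leaving out each replicate gave medians of the fold change from -0.24 to -0.16. The copies mcm3l and mcm6l were too low to be tested, with 0 to 6 counts per library. How reads shared with these copies were assigned is not known, and their part in the values of mcm3 and mcm6 was not tested.

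The factors that turn the loaded ring into a working helicase had a median log2 fold change of 0.28, with 5 positive and 1 negative. The negative one was mcm10 (gene ID 553396), which stabilizes the active helicase. It was measured at 5.1, 4.02 and 4.1 CPM in DMSO and at 2.53, 3.43 and 3.50 CPM in sunitinib. The groups were apart, with a log2 fold change of -0.48 (SE 0.22, edgeR adjusted p = 0.362), and the unadjusted p was under 0.05 in only 5 of 17 alternative fits. The GINS subunit gene gins2 had 3.63, 7.89 and 7.59 CPM in DMSO and 9.15, 6.16 and 7.94 CPM in sunitinib. Its log2 fold change of 0.28 (SE 0.26) rested on DMSO replicate 1 and was -0.004 without that library. In gins1 and gins3 the same library was the lowest, at 3.56 CPM against 6.03 to 8.78 CPM and at 3.28 CPM against 5.97 to 7.59 CPM in the other libraries. In gins4, with a log2 fold change of 0.455 (SE 0.22), DMSO replicate 3 was the lowest library, at 3.70 CPM. In cdc45, at 0.28 (SE 0.24), DMSO replicate 1 was the highest DMSO library, at 6.22 CPM. Both had overlapping groups. Without DMSO replicate 1 the group's median went from 0.28 to 0.043.

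Among the polymerase and primase genes, 5 of 8 fold changes were negative, with a median of -0.075 on the log2 scale, and none had an unadjusted p under 0.05. Leaving out DMSO replicate 3 gave a median of -0.15, and leaving out DMSO replicate 1 one of 0.021. The catalytic subunit gene pola1, of the polymerase that starts each new strand on its primer, had 17.6, 16.5 and 20.4 CPM in DMSO and 15.3, 12.9 and 15.4 CPM in sunitinib. Its libraries did not overlap between groups, and the log2 fold change was -0.32 (SE 0.15, edgeR adjusted p = 0.367). It was -0.19, with overlapping groups, once the length trend was taken out. The leading strand polymerase gene pole was also separate, at -0.30 (SE 0.15). The lagging strand polymerase gene pold1, the highest of the group per length, had 26.8, 31.4 and 30.4 CPM in DMSO and 27.2, 30.0 and 25.5 CPM in sunitinib. Those values overlapped, with a log2 fold change of -0.099 (SE 0.14). The smaller subunits pola2, pold2 and pole2 and the primase genes prim1 and prim2 lay between -0.14 and 0.14, all with overlap.

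The clamp and its loader divided between the large subunit and the rest. The large loader subunit gene rfc1 (gene ID 100037336) was at 24.03, 14.8 and 18.5 CPM in DMSO and at 14.5, 12.5 and 13.5 CPM in sunitinib. The groups were apart by a margin of 14.8 against 14.5 CPM, and the log2 fold change was -0.50 (SE 0.18, edgeR adjusted p = 0.309). It was -0.30 without DMSO replicate 1, no longer at an unadjusted p under 0.05, which held in 14 of 17 alternative fits. Taking out the length trend gave -0.38, with overlapping groups. The small loader subunits rfc2, rfc3, rfc4 and rfc5 had fold changes from 0.20 to 0.32, with overlapping groups. The clamp gene pcna had 207, 302.5 and 191 CPM in DMSO and 289.9, 302 and 303 CPM in sunitinib. DMSO replicate 2 was at the sunitinib level and the other 2 DMSO replicates were below it, with a log2 fold change of 0.35 (SE 0.18, edgeR adjusted p = 0.397). It was 0.59 without DMSO replicate 2 and 0.23 without DMSO replicate 3. The median of the 6 genes, 0.25, was 0.15 without DMSO replicate 1 and 0.41 without DMSO replicate 2.

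The trimer RPA, which coats unwound DNA, had positive fold changes for all 3 genes. The middle subunit gene rpa2 (gene ID 65226) was at 17.3, 27.8 and 24.2 CPM in DMSO and at 33.6, 31.9 and 30.2 CPM in sunitinib. The sunitinib libraries all lay above the DMSO libraries, with a log2 fold change of 0.47 (SE 0.17, edgeR adjusted p = 0.309), the highest of the 52. It was 0.30 without DMSO replicate 1 and 0.28 after the length trend was taken out, and the unadjusted p was under 0.05 in 14 of 17 alternative fits. The small subunit gene rpa3 had 15.7, 8.45 and 7.86 CPM in DMSO and 14.1, 10.3 and 9.89 CPM in sunitinib. Replicate 1 was the highest in both groups, and the log2 fold change was 0.098 (SE 0.25), or 0.48 without DMSO replicate 1. The large subunit gene rpa1 was at 0.14 (SE 0.21). The median of the 3 genes, 0.14, was -0.005 with DMSO replicate 3 left out and 0.41 with DMSO replicate 1 left out.

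The joining of lagging strand fragments gave opposite values for its 2 genes. The DNA ligase gene lig1 (gene ID 556995), which seals the fragments, had 23.1, 15.2 and 19.8 CPM in DMSO and 12.9, 12.2 and 13.1 CPM in sunitinib. The groups were apart, and the log2 fold change of -0.60 (SE 0.17, unadjusted p = 0.00309, edgeR adjusted p = 0.285) was the lowest of the 52. Its unadjusted p was under 0.05 in 17 of 17 alternative fits. The flap nuclease gene fen1, which trims the fragments before ligation, had 17.9, 29.5 and 22.3 CPM in DMSO and 30.9, 29.3 and 25.6 CPM in sunitinib, with overlap and a log2 fold change of 0.30 (SE 0.18). It was 0.14 without DMSO replicate 1 and 0.51 without DMSO replicate 2.

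Nucleotide supply genes had a median log2 fold change of 0.30, with 3 positive and 1 negative. Thymidylate synthase, tyms (gene ID 81540), which makes the thymidine nucleotide of DNA, was at 12.7, 16.6 and 8.54 CPM in DMSO and at 17.5, 16.9 and 17.4 CPM in sunitinib. The sunitinib libraries were close together and all above the DMSO libraries, by a margin of 16.9 against 16.6 CPM, with a log2 fold change of 0.45 (SE 0.20, edgeR adjusted p = 0.356). It was 0.24 without DMSO replicate 3 and 0.71 without DMSO replicate 2, and the unadjusted p was under 0.05 in 8 of 17 alternative fits. With the length trend taken out it was 0.27 and the groups overlapped. The group's median was 0.14 without DMSO replicate 1, 0.19 without DMSO replicate 3 or sunitinib replicate 1, and 0.47 without DMSO replicate 2. The small subunit of ribonucleotide reductase, rrm2, had 76.2, 107 and 78.6 CPM in DMSO and 93.6, 109 and 103 CPM in sunitinib. Those groups overlapped, with a log2 fold change of 0.22 (SE 0.16), or 0.13 without DMSO replicate 1 and 0.40 without DMSO replicate 2, and the large subunit rrm1 was at -0.081 (SE 0.14). The folate enzyme gene dhfr, which renews the cofactor of tyms, was at 0.38 (SE 0.24), with sunitinib replicate 1 at 20.0 CPM above the other libraries at 7.54 to 13.7 CPM.

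All 4 genes of chromatin assembly and maintenance methylation had lower means with sunitinib, with a median log2 fold change of -0.30. The large subunit gene of the histone chaperone CAF-1, chaf1a (gene ID 563212), was at 55.2, 50.8 and 50.5 CPM in DMSO and at 40.7, 43.0 and 39.7 CPM in sunitinib. The gap between the groups was wider than the spread within either, and the log2 fold change was -0.34 (SE 0.13, edgeR adjusted p = 0.314). The unadjusted p was under 0.05 in 14 of 17 alternative fits. Those without sunitinib replicate 1 (-0.33) or sunitinib replicate 3 (-0.31) were among the fits where it was not. Across the 17 fits the fold change of chaf1a ran from -0.40 to -0.24. The gene uhrf1 (gene ID 406350), whose product brings the methyltransferase to newly copied DNA, had 28.6, 25.9 and 27.8 CPM in DMSO and 22.9, 17.1 and 18.8 CPM in sunitinib. Its groups were apart, with a log2 fold change of -0.49 (SE 0.15, unadjusted p = 0.00545, edgeR adjusted p = 0.293) and an unadjusted p under 0.05 in 17 of 17 alternative fits. The maintenance methyltransferase gene dnmt1 was also separate, at 53.4, 55.4 and 54.6 CPM against 46.3, 42.6 and 47.3 CPM, while chaf1b overlapped. The 4 genes had median deviations of 0.267, 0.158 and 0.13 in the DMSO libraries and of -0.144, -0.163 and -0.147 in the sunitinib libraries, without overlap. Leaving out each replicate gave medians of the fold change from -0.35 to -0.29.

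**Figure D3:**
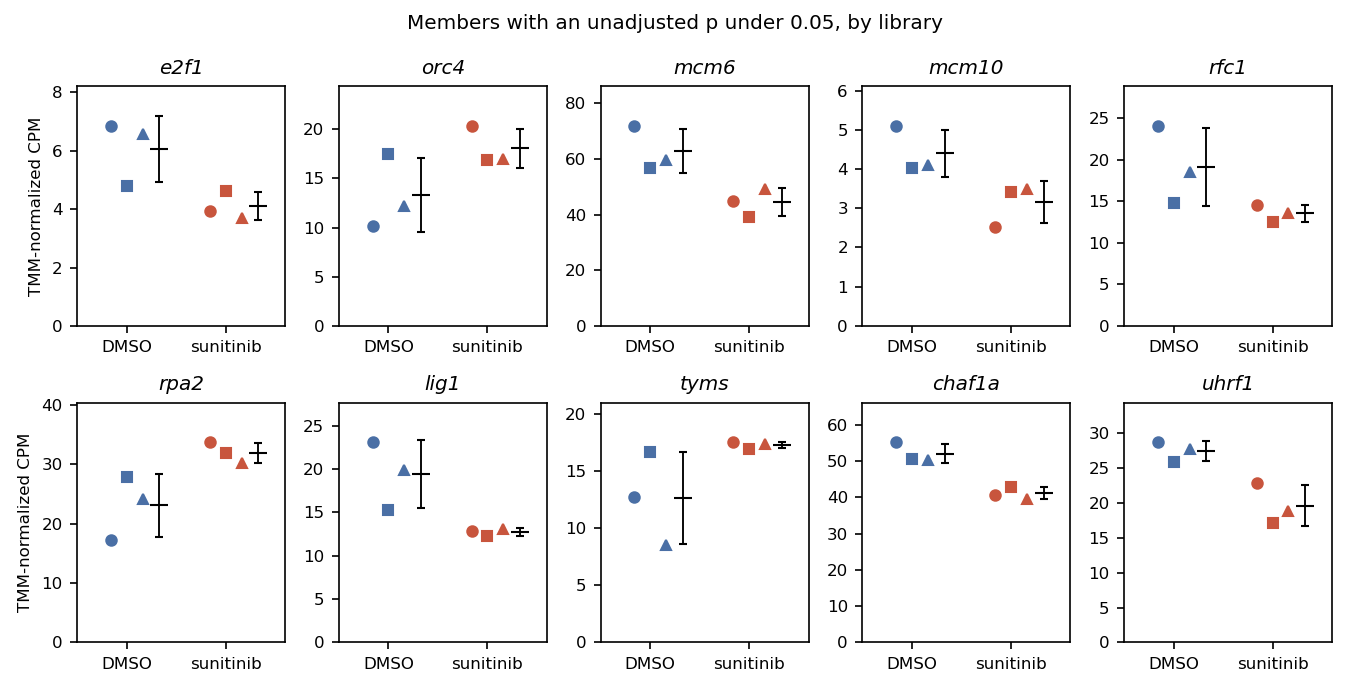
TMM-normalized CPM of the 10 genes with an unadjusted p under 0.05, by library, with the mean and SD of the 3 replicates as black bars and each axis starting at 0. The groups overlap only in orc4, and the margin is narrow in e2f1, rfc1 and tyms.

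**Figure D4:**
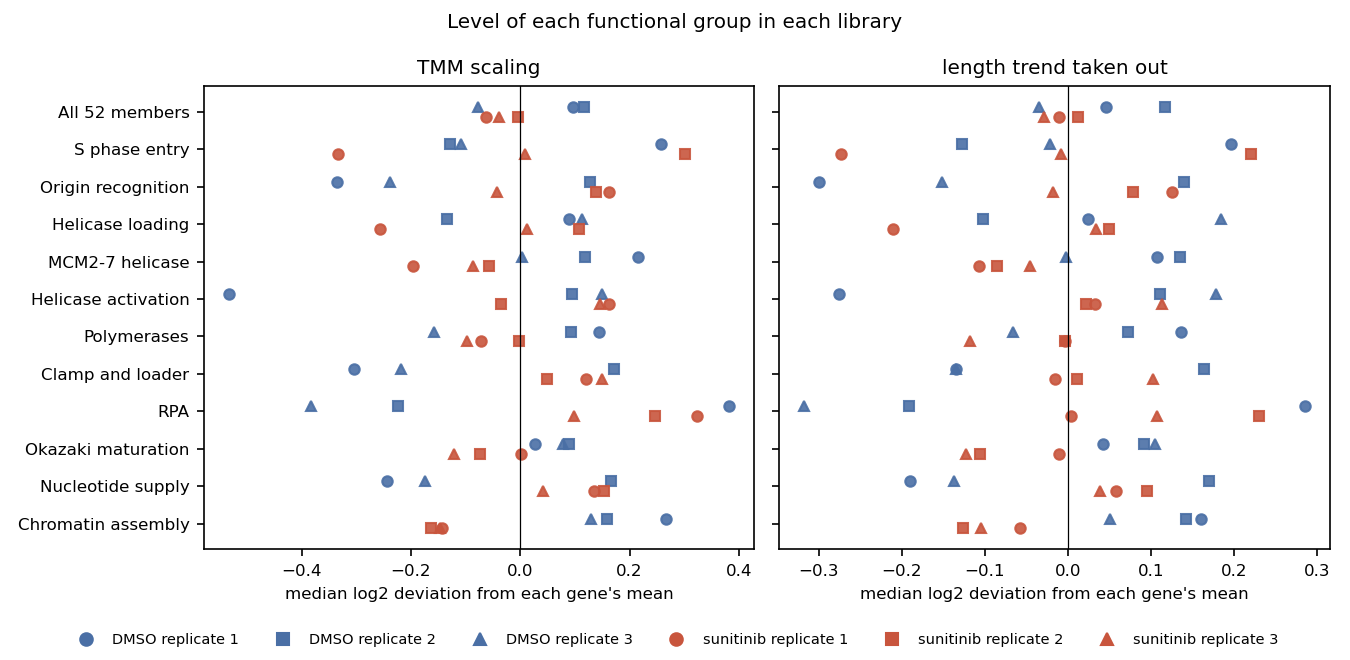
Median over genes of the log2 level minus that gene's mean over the 6 libraries, for all 52 genes and for each functional group, with blue for DMSO and red for sunitinib, under TMM scaling (left) and after the length trend was taken out (right). The MCM, chromatin assembly and Okazaki maturation groups keep the sunitinib libraries left of the DMSO libraries in both panels. The last holds only 2 genes of opposite direction, lig1 at -0.60 and fen1 at 0.30. DMSO replicate 1 lies at -0.533 for helicase activation under TMM scaling.

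The direction of a replication gene went with its length. Fold change and effective length had a Spearman correlation of -0.80 across the 52 genes, where it was -0.41 over the 16573 tested genes with a length. Genes share the 6 libraries and are not independent replicates. Lengths ran from 241 to 6879 bp, with a median of 1802 bp. Of the 31 genes shorter than 2000 bp, a limit chosen after the data were seen, 26 had a positive and 5 a negative fold change, with a median of 0.28 against 0.14 for all 8376 shorter genes. Of the 21 genes of 2000 bp or longer, 2 were positive (orc3 and rpa1) and 19 negative, with a median of -0.29 against -0.11 for all 8197 longer genes. All 7 lower genes at an unadjusted p under 0.05 were among these 21, or 33.3%, against 9.66% of all longer genes. The same held for the 12 genes whose sunitinib libraries lay below the DMSO libraries, 57.1% against 17% of all longer genes.

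The length trend differed between libraries. Over all genes with a length, the Spearman correlation of a library's deviation with length was 0.22, 0.04 and 0.31 in the DMSO libraries and -0.40, -0.13 and -0.20 in the sunitinib libraries. Over the 52 genes it was 0.63, -0.25 and 0.49 in DMSO and -0.62, -0.33 and -0.65 in sunitinib. DMSO replicate 1 was the lowest of the 6 libraries for 15 of the 31 shorter genes and the highest for 13 of the 21 longer ones. Sunitinib replicate 1 was the highest library for 13 of the shorter genes and the lowest for 8 of the longer ones.

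With a smooth curve on length taken out of each library, the correlation over all genes was -0.02 and that over the 52 genes was -0.61. The median fold change of the 52 genes was then -0.026 on the log2 scale, with 23 positive and 29 negative. None was higher at an unadjusted p under 0.05, against 5.67% of all genes, and 6 were lower (e2f1, mcm6, rfc1, lig1, chaf1a and uhrf1), or 11.5%, against 5.81% of all genes. The smallest adjusted p of the 52 in this edgeR fit was 0.306. Groups that did not overlap numbered 1 higher, rpa2, where 8.22% of all genes did so, and 6 lower (mcm6, mcm10, lig1, chaf1a, uhrf1 and dnmt1), where 9.29% did. All 6 MCM genes and all 4 chromatin assembly genes stayed negative, with medians of -0.18 and -0.22. Of the 8 polymerase and primase genes, 7 were negative here, with a median of -0.12, against 5 and -0.075 before. The medians of origin recognition, helicase activation, the clamp and nucleotide supply remained positive, at 0.20, 0.11, 0.12 and 0.18. With DMSO replicate 1 also left out, those of origin recognition, helicase activation, the clamp and nucleotide supply were 0.009, -0.103, 0.037 and 0.037. Those of MCM and chromatin assembly were then -0.13 and -0.19. The MCM genes were 1805 to 2905 bp long and the chromatin assembly genes 2312 to 4811 bp. The loader genes rfc2 to rfc5 were 982 to 1269 bp and gins1 to gins4 were 552 to 896 bp. Function and length went together in these groups, and their parts in the values were not tested.

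**Figure D5:**
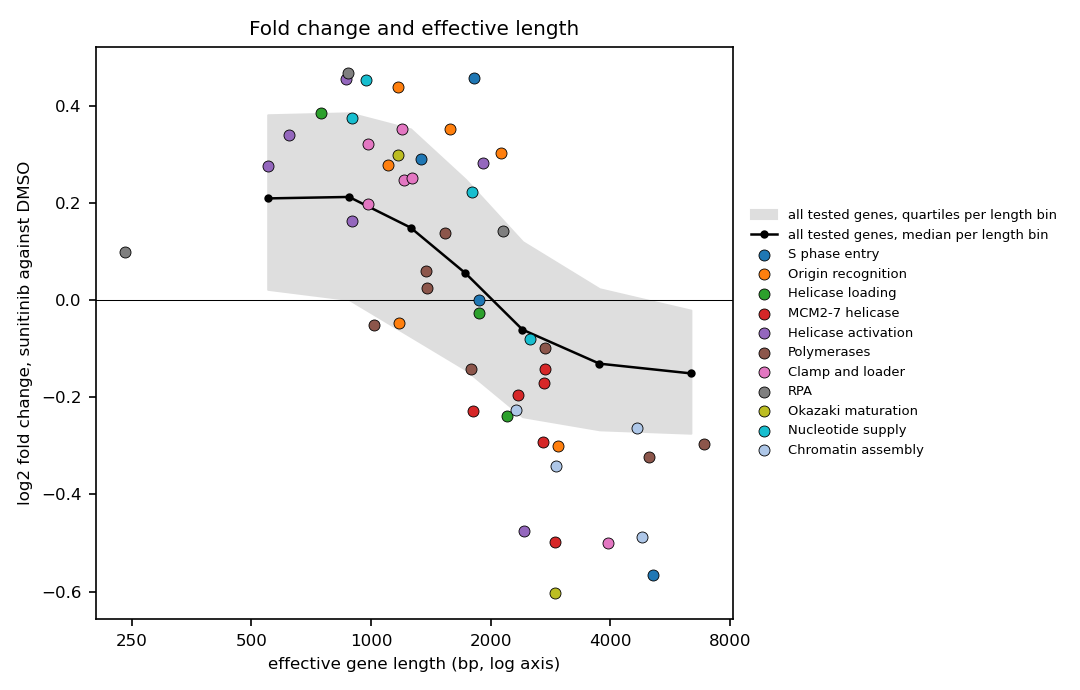
Log2 fold change of the 52 genes against effective length in bp (log axis), coloured by function, with the median (black line) and quartiles (grey band) of all tested genes in 7 length bins. Short replication genes lie mostly above 0 and long ones below, with most of the longer genes under the median line of all genes.

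Other genes of replication, from a list of 73 symbols that are not among the 52, were counted in the same fit. Of these, 66 were tested, and 27 had a positive and 39 a negative fold change, with a median of -0.054 on the log2 scale. At an unadjusted p under 0.05, 1 was higher and 9 were lower, 1.52% and 13.6% of the list against 7.51% and 6.12% of all genes. With the length trend taken out, 1 was higher and 4 were lower, 1.52% and 6.06% against 5.67% and 5.81%. The origin firing factor gene ticrr had 7.47, 7.34 and 7.93 CPM in DMSO and 4.61, 5.90 and 5.32 CPM in sunitinib, with a log2 fold change of -0.52 (SE 0.17, edgeR adjusted p = 0.307). The pocket protein gene rbl1, the mismatch repair gene msh6 and the cohesin gene smc3 were at -0.40, -0.37 and -0.41 (edgeR adjusted p = 0.314 for each). The groups of smc3 overlapped. All of these genes were long, from 3522 bp for rbl1 to 5626 bp for ticrr. With the length trend taken out, ticrr, rbl1, msh6 and smc3 were at -0.38, -0.28, -0.25 and -0.29. The edgeR unadjusted p of rbl1 and msh6 was then 0.062 and 0.0797. The median of the list was 0.072 without DMSO replicate 1. It was -0.14, -0.15 and -0.14 without DMSO replicate 2, DMSO replicate 3 and sunitinib replicate 2. The list's correlation of fold change with length was -0.63 over the 66 genes.

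Genes of mitosis, a later stage of the cell cycle, had a median log2 fold change of -0.14, with 14 of 43 tested genes positive and 29 negative. The median was -0.054 without DMSO replicate 1. The unadjusted p was under 0.05 for 3 higher and 5 lower genes, 6.98% and 11.6% of the list against 7.51% and 6.12% of all genes. With the length trend taken out these were 0 higher and 4 lower, 0% and 9.3% against 5.67% and 5.81%. The proliferation marker gene mki67 was at 85.2, 53.2 and 68.6 CPM in DMSO and at 50.6, 41.9 and 46.9 CPM in sunitinib. Its groups did not overlap, and the log2 fold change was -0.57 (SE 0.17, edgeR adjusted p = 0.293). The condensin gene smc2, the topoisomerase gene top2a and the checkpoint gene bub3 were at -0.54, -0.39 and -0.37. The groups of smc2 overlapped. Of these 4, bub3 is the only one under 2000 bp, at 989 bp, and its fold change after the length trend was taken out was -0.57. The values of mki67, smc2 and top2a were then -0.43, -0.41 and -0.26, with an edgeR unadjusted p of 0.0762 for top2a. Without DMSO replicate 1, mki67, smc2, top2a and bub3 were at -0.39, -0.40, -0.32 and -0.265. Over the 43 genes the correlation of fold change with length was -0.73.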

How the data were processed

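Gene expression was measured by strand-specific, paired-end 150 bp RNA sequencing in 3 DMSO and 3 sunitinib replicates, grouped by their labels. The authors aligned the reads to GRCz11 and counted them by gene. Tool names, tool versions and the annotation release were not given in the sources used here. Each gene has estimated counts in the deposited table, not normalized, of which 92.5% to 93.0% are whole numbers. The authors also deposited FPKM and TPM, scaled by gene length and depth. FPKM was used for levels and for effective lengths, and TPM only as a check of the order of levels. The authors' normalized counts and group averages were not used.

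The 52 genes and all lists were chosen with earlier results of these data known. Estimated counts were rounded and fitted with edgeR 4.0.16 in R 4.3.3 (TMM, filterByExpr, quasi-likelihood F-test, 2-sided, Benjamini-Hochberg over 17309 genes, threshold 0.05), which left 7614 genes out. The biological coefficient of variation was 0.153. The study's methods name DESeq2, which was run as an alternative (1.42.0). No 2 libraries agreed within sampling noise, so none was a copy of another, and each was treated as its own replicate. This does not show that they came from separate clutches.

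Values per library are given for 21 of the 52 genes, namely those with an unadjusted p under 0.05 and, in each functional group, the gene of smallest p and that of highest DMSO FPKM. Values of dnmt1, gins1, gins3 and dhfr were added after they were seen. Of the other replication and mitosis lists the 4 genes of smallest p are named. Alternatives were DESeq2's size factors or upper-quartile factors, no filter or a minimum of 10 counts in all libraries, a replicate block, leaving out each replicate, limma 3.58.1 on log2(FPKM + 1) or log2(FPKM + 0.1) for genes with at least 1 FPKM in 3 libraries, and a lowess curve of span 0.3 on effective length per library entered as an offset. The length trend without DMSO replicate 1, the split at 2000 bp and groups compared on deposited FPKM were added after the data were seen. The fits were also run on simulated counts with set changes larger than any of the 52 genes had. Those counts held no length trend and no outlying library, so they cannot show how the fits treat either. All 52 gene IDs were found in the RefSeq table used here, and 51 of them carried the same symbol there. That table is of another build, so no coordinates are given.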

Additional observations from a re-analysis of the deposited data

How the results depend on the processing

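None of the 52 genes passed the adjusted threshold in 15 alternatives that included all of them, nor any of the 51 in the limma fits, whose FPKM filter left out e2f1. Over all genes, 0 passed in the edgeR fit reported above, 12 without the filter on low counts, 43 with DESeq2, 23 with the length trend taken out and DMSO replicate 1 left out, and 0 to 3 with each replicate left out. With limma on either FPKM scale, the 3 higher genes at an unadjusted p under 0.05 became 1. That is 1.96%, against 5.64% and 5.59% of all genes. With the length trend taken out they became 0, against 5.67% of all genes, and 0 with a replicate block as well, against 4.86%. With a replicate left out they became 1 to 11 (1.92% to 21.2%, against 4.88% to 9.71%). The 7 lower genes became 4 with the length trend taken out with a replicate block (7.69%, against 4.93% of all genes). They became 4 to 9 with a replicate left out (7.69% to 17.3%, against 3.51% to 7.73%). The median of the 52 fold changes, 0.042, ran from -0.045 to 0.124 with a replicate left out and was -0.048 with the length trend taken out and DMSO replicate 1 left out. Genes whose groups did not overlap numbered 3 higher and 12 lower in the main fit (5.77% and 23.1%, against 9.15% and 10.8% of all genes). They numbered 1 higher and 6 lower with the length trend taken out, with the shares over all genes given above. On deposited FPKM 1 was higher, and the share over all genes is not given here. The median level was 7.31 in TPM and 8.98 in FPKM. The direction of cdc6 turned in replicates left out (-0.20 to 0.088), as did gins2 (-0.004 to 0.46) and rpa3 (-0.082 to 0.48). With the length trend taken out, rpa3 was -0.055, or -0.018 with a replicate block, and gins2 was -0.155 without DMSO replicate 1. Why these moved was not tested.

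The labels do not say whether replicate numbers mark a shared clutch or day. Deviations of same-numbered libraries correlated at -0.16, -0.10 and 0.01, which with 3 libraries per group cannot decide whether the samples were paired. A replicate block gave 0 genes at the adjusted threshold, an unadjusted p under 0.05 for 2 higher and 6 lower of the 52 genes (3.85% and 11.5%, against 5.69% and 4.8% of all genes), and a median of 0.034. With 3 pools per group at this depth, low genes such as mcm10 and e2f1, at 2.53 to 6.85 CPM, carried standard errors of 0.22 and 0.20 on the log2 scale, against 0.13 for chaf1a.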

Other observations

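The list of cyclin-dependent kinase inhibitors and p53 targets, which act against S phase entry, had 15 tested genes, of which 11 had positive and 4 negative fold changes, and its median was 0.13 on the log2 scale. At an unadjusted p under 0.05, 2 were higher and 0 lower, 13.3% and 0% of the list against 7.51% and 6.12% of all genes. With the length trend taken out, 1 was higher and 1 lower, 6.67% each against 5.67% and 5.81% of all genes, and the median was 0.072. The inhibitor gene cdkn1a had 1.47, 1.11 and 1.08 CPM in DMSO and 2.01, 2.86 and 1.55 CPM in sunitinib, with a log2 fold change of 0.82 (SE 0.31, edgeR adjusted p = 0.318). It rests on 16 to 45 counts per library, and DESeq2 gave it an unadjusted p of 0.0528 and no adjusted p. The inhibitor gene cdkn1ca was at 0.40 (SE 0.16, edgeR adjusted p = 0.329), and at 0.20 with the length trend taken out, against 0.79 for cdkn1a. In the other direction, btg2 was at -0.25 (SE 0.14, edgeR adjusted p = 0.428), with groups apart. It was -0.285 with the length trend taken out, where it was the lower gene counted above. The ribonucleotide reductase subunit gene rrm2b, a paralog of rrm2, had 18.8, 30.3 and 24.6 CPM in DMSO and 32.1, 40.9 and 33.8 CPM in sunitinib, without overlap. Its log2 fold change was 0.53 (SE 0.18, edgeR adjusted p = 0.305), and 0.38 after the length trend was taken out. The mitotic kinase gene cdk1 was at 20.5, 35.5 and 35.3 CPM in DMSO and at 49.1, 39.1 and 40.1 CPM in sunitinib, above in every library while mki67 and top2a were below, with a log2 fold change of 0.49 (SE 0.20, edgeR adjusted p = 0.329), or 0.34 with the length trend taken out. These genes were chosen after their values were seen, and none passed the adjusted threshold.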
